A study of Mus musculus with 26 samples.

Results

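The genes described here are Bcl2l11, which encodes BIM, and 6 other pro-apoptotic relatives of BCL2 in mouse S49 T-lymphoma cells: Bid, Bad, Bik, Bax, Bak1 and Pmaip1. Every probe set whose only gene symbol in the platform annotation was one of these 7 was taken, without regard to its values. A probe set is a group of short array oligonucleotides that together read 1 stretch of a transcript. This gave 15 of the 22626 probe sets: 5 for Bcl2l11, 3 for Bik, 2 each for Bid, Bad and Bak1, 1 for Pmaip1 and 0 for Bax, which is not analysed here. The 15 probe sets stand for 6 of the 12393 genes measured.

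The proteins of the BCL2 family decide whether the outer mitochondrial membrane is opened, the step that lets cytochrome c out and starts the caspases. BAX and BAK form the pores. The anti-apoptotic members, such as BCL2, BCL-XL and MCL1, hold them in check. The BH3-only proteins, among them BIM, BID, BAD, BIK and NOXA (Pmaip1), answer upstream signals and either bind the anti-apoptotic members or activate BAX and BAK directly. In T cells BIM is known as the main BH3-only protein of thymocyte deletion and of the death of lymphocytes deprived of cytokine.

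S49 is a mouse T-lymphoma line that is killed by a sustained rise in cAMP, and Kin- is an S49 mutant known for lacking the activity of protein kinase A, the main cAMP-dependent kinase. The 26 arrays hold total RNA from the wild-type line (WT) and from Kin-, either untreated (0 h, 4 arrays for each line) or after 2, 6 or 24 h in 100 uM 8-CPT-cAMP, a cell-permeant cAMP analog (3 arrays for each line and time). The labels name no vehicle control. They do not tell whether replicate arrays hold RNA of separate cultures, and a p-value here covers the spread between arrays, which may be technical. Each genotype is 1 cell line, so the loss of the kinase and any other difference between the lines cannot be told apart.

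A level is the square root of the deposited score, which was treated as a log2 intensity, since it ran from 0.61 to 16.35 with array medians between 5.40 and 5.53. The scale of the scores is not given in the sources used here, so 1 unit need not be a doubling. The arrays were split by number into 2 sets, the 10 arrays numbered 1 to 14 and the 16 numbered 16 to 47. The labels name no such sets, and the numbers have wider gaps elsewhere. The 2 sets lay apart on the first component left after the group means were removed (35.5% of that variance). Every treated group held 1 array of the lower-numbered set and every untreated group 2. In WT the numbers formed series of consecutive arrays, 1 to 4, 16 to 19 and 36 to 39. In Kin- they were 5 to 8, 40 to 43 and 44 to 47. Each series ran through 0, 2, 6 and 24 h in order, with arrays 13 and 14 outside them. The labels do not tell whether a series is a matched time course. Of 10 listed T-cell marker genes 9 were measured: Cd3d (12.24 to 13.38), Cd3g, Thy1 and Ptprc were high on every array, while Cd4 (5.25 to 5.79), Cd8a (5.88 to 6.52) and Cd5 (2.95 to 3.91) were not. Markers of B cells, myeloid cells, red cells and fibroblasts (15 of 18 measured) stayed between 1.64 and 6.05 apart from the myeloid integrin gene Itgam, given below with the 24 h results.

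The promoter of Bcl2l11 is shown because all 5 of its probe sets rose together at 2 h and because FOXO factors, whose genes are described further below, are known to act on Bim transcription. RefSeq (GRCm38.p6) gave 2 start sites for Bcl2l11, and the 250 bases before the first of them lie at chr2:128125788-128126037 on the + strand, with the capitals marking the FOXO core GTAAACA and the CCAAT box in its opposite-strand form ATTGG:
Bcl2l11 promoter: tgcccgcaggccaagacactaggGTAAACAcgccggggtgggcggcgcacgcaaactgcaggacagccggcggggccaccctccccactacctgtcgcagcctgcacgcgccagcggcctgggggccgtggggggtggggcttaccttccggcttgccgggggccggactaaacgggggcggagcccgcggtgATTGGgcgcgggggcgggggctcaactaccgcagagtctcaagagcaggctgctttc

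The G and C content of this window was 72.0%, above that of 93.1% of all 32851 windows of the same length, whose median was 52.4%. The FOXO core (GTAAACA, or TGTTTAC on the other strand) began 227 bases before the start, and 3.17% of all windows held it on either strand. The CCAAT box began 57 bases before the start and was a common feature, present in 33.8% of windows. Neither the full cAMP response element TGACGTCA (1.55% of all windows) nor its core TGACG (17.8%) was among these letters. They were also absent from the second Bcl2l11 window and from those searched for Bid, Bad, Bak1 and Bax. The FOXO core was in none of these other windows either, the second Bcl2l11 window included. These are matches of letters within 250 bases and no binding was measured. No window of Bik or Pmaip1 was searched, so the absences do not cover those genes. The search of member windows left out a chromosome, a limit that the shares over all windows did not have.

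Bcl2l11 was higher in WT cells at each time in the analog, and its probe sets differed in the course they took. At 2 h all 5 rose, by between 1.71 and 3.44 units, and at 6 h all 5 were still raised, by between 0.92 and 1.37. At 24 h 4 of the 5 were raised, by between 1.83 and 2.88, while 1426334_a_at stood at 0.37 (adjusted p = 0.0715). Changes were tested with limma, fitted to all 26 arrays and 22626 probe sets with Benjamini-Hochberg adjustment and a threshold of 0.05. The probe sets are not independent readings of the gene: 1435448_at and 1435449_at were designed from one sequence record, 1456005_a_at and 1456006_at from another, and 1426334_a_at from the third. The RNA is that of a whole culture, in which more cells with a transcript and more transcript per cell cannot be told apart.

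**Figure D1:**
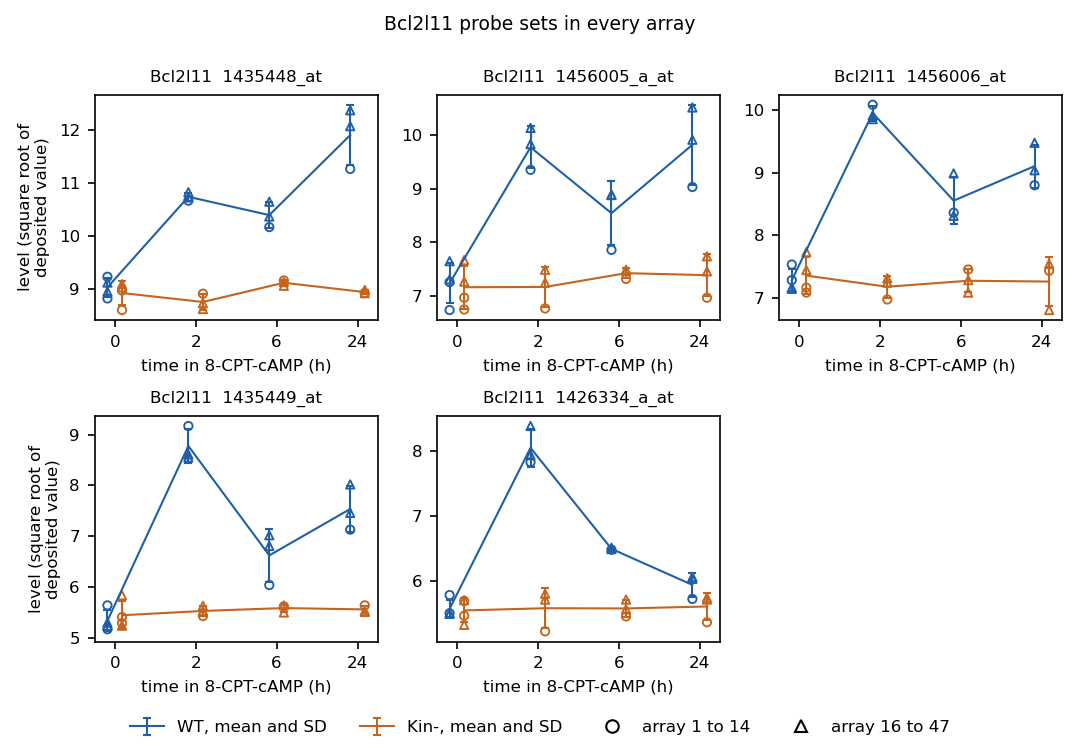
Level (square root of the deposited score) of the 5 Bcl2l11 probe sets on every array, against time in 8-CPT-cAMP in h at equal spacing; circles are arrays 1 to 14, triangles arrays 16 to 47, and lines join group means with bars of 1 SD (n = 4 at 0 h, n = 3 at other times). WT arrays rise above Kin- arrays at 2 and 6 h in each panel, and at 24 h 1435448_at is at its highest (11.27 to 12.38) while 1426334_a_at is back near its untreated level (5.72 to 6.06).

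The probe set with the highest mean, 1435448_at, had its highest level at 24 h. Untreated WT arrays 1, 13, 16 and 36 read 9.23, 8.82, 8.95 and 9.12. At 2 h the arrays read 10.67, 10.83 and 10.73, at 6 h 10.17, 10.65 and 10.37, and at 24 h 11.27, 12.38 and 12.08. No treated array overlapped the untreated ones, and the 24 h arrays lay above all others, with array 4 of the lower-numbered set the lowest of the 3. The rise was 1.71 ± 0.18 (SE) at 2 h (adjusted p = 6.68e-07), 1.37 ± 0.18 at 6 h (adjusted p = 8.57e-06) and 2.88 ± 0.18 at 24 h (adjusted p = 1.31e-10). The order of the group means was thus 24 h, 2 h, 6 h, 0 h. The 2 and 6 h groups, neighbours in that order, differed by -0.35 (95% interval -0.75 to 0.05, adjusted p = 0.232), although their arrays did not overlap and the fall passed with array weights (-0.34, adjusted p = 0.0478). From 6 to 24 h it rose by 1.51 (adjusted p = 6.61e-06). In the lower-numbered set the rise at 24 h was 2.24 and in the higher-numbered set 3.19.

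The companion from the same record, 1435449_at, had its peak at 2 h. Its untreated WT arrays read 5.64, 5.17, 5.24 and 5.30, and those at 2 h 9.17, 8.61 and 8.55. It then read 6.04, 7.02 and 6.81 at 6 h and 7.13, 8.02 and 7.46 at 24 h. The 4 groups did not overlap, and on array 3, of the lower-numbered set, the 6 h level was the lowest. The changes from 0 h were 3.44 ± 0.21 (adjusted p = 5.04e-10), 1.29 ± 0.21 (adjusted p = 0.000135) and 2.20 ± 0.21 (adjusted p = 5.87e-08). The fall from 2 to 6 h, -2.15 (adjusted p = 4.12e-06), was followed by a rise of 0.91 to 24 h (adjusted p = 0.00687). That second rise missed the threshold without array 3 (0.62, adjusted p = 0.0583), without array 19 (0.67, adjusted p = 0.0634), and when WT arrays were fitted alone (0.91, adjusted p = 0.0579). At 6 h its rise was 0.64 in the lower-numbered set and 1.65 in the higher-numbered one.

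The pair from the second record had a dip at 6 h between 2 high points. For 1456006_at the untreated WT levels were 7.53, 7.28, 7.16 and 7.14. They were 10.09, 9.92 and 9.86 at 2 h, 8.36, 8.99 and 8.31 at 6 h, and 8.80, 9.48 and 9.04 at 24 h. All treated arrays lay above the untreated ones, the 2 h arrays lay highest, and the 6 and 24 h arrays overlapped. The rises were 2.68 ± 0.20 (adjusted p = 6.27e-09), 1.27 ± 0.20 (adjusted p = 7.5e-05) and 1.83 ± 0.20 (adjusted p = 2.88e-07). From 2 to 6 h it fell by 1.41 (adjusted p = 0.000156). The difference of 0.55 between 24 and 6 h missed the threshold (adjusted p = 0.0857), but passed without array 18 (0.77, adjusted p = 0.0202) or array 4 (0.71, adjusted p = 0.0367) and with array weights (0.54, adjusted p = 0.0184).

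For 1456005_a_at the spread was the widest of the 5, with an SE of 0.32. Untreated WT arrays read 7.26, 6.74, 7.31 and 7.65, those at 2 h 9.35, 10.13 and 9.83, those at 6 h 7.86, 8.88 and 8.89, and those at 24 h 9.03, 10.51 and 9.91. Within each treated time the array of the lower-numbered set was the lowest, and no treated array reached down to the untreated ones. The rises were 2.53 (adjusted p = 8.93e-06), 1.31 (adjusted p = 0.00545) and 2.58 (adjusted p = 1.71e-06). The dip at 6 h passed as a fall of 1.23 from 2 h (adjusted p = 0.0228) and a rise of 1.28 to 24 h (adjusted p = 0.0118). The fall was no longer past the threshold without array 17 (-1.05, adjusted p = 0.103), array 37 (-1.20, adjusted p = 0.0617) or array 3 (-0.88, adjusted p = 0.125), nor in WT arrays alone (-1.23, adjusted p = 0.0869). The same held for the rise to 24 h without array 3 (0.93, adjusted p = 0.0865) or array 19 (0.93, adjusted p = 0.098), and in WT arrays alone (1.28, adjusted p = 0.0559).

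The last Bcl2l11 probe set, 1426334_a_at, was raised at 2 h and fell at each step after it. Untreated WT arrays read 5.78, 5.50, 5.49 and 5.50. At 2 h the levels were 7.83, 7.94 and 8.39, at 6 h 6.48, 6.49 and 6.51, and at 24 h 5.72, 6.06 and 6.03. The 2 and 6 h arrays stood clear of all others, and the 24 h arrays overlapped the untreated ones through array 4 (5.72) and array 1 (5.78). The rise was 2.49 ± 0.15 at 2 h (adjusted p = 2.49e-10) and 0.92 ± 0.15 at 6 h (adjusted p = 9.52e-05). It fell by 1.56 from 2 to 6 h (adjusted p = 2.26e-06) and by 0.56 from 6 to 24 h (adjusted p = 0.0168; -0.45, adjusted p = 0.0809 without array 4). The remaining 0.37 at 24 h (95% interval 0.06 to 0.68) passed in 7 of the other fits, among them the one without array 1 (0.44, adjusted p = 0.0419) and the arrays 16 to 47 alone (0.55, adjusted p = 0.0127), while in the arrays 1 to 14 it was 0.08.

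The late course of each probe set was tested as its change from 2 to 24 h in WT. This comparison was added after the courses were seen to differ, and the difference between probe sets was not itself tested. From 2 to 24 h 1435448_at rose by 1.17 ± 0.19 (adjusted p = 6.15e-05), but in the arrays 1 to 14 alone, with 1 array a time, the change was 0.59 (adjusted p = 0.347). Over the same interval 1426334_a_at fell by 2.12 ± 0.16 (adjusted p = 2.84e-09), 1435449_at by 1.24 ± 0.23 (adjusted p = 0.000215; -2.04, adjusted p = 0.0522 in arrays 1 to 14 alone) and 1456006_at by 0.85 ± 0.21 (adjusted p = 0.00387; -0.63, adjusted p = 0.0913 in arrays 16 to 47 alone). The change of 1456005_a_at was 0.05 (95% interval -0.67 to 0.77). Over all 26 arrays, probe sets designed from the same record thus went opposite ways over this interval, 1435448_at up and 1435449_at down. Which transcript forms each probe set reads was not analysed here.

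Beside Bcl2l11, Bid was the member that changed most, and in the other direction. BID is the BH3-only protein that caspase-8 cuts to carry a death receptor signal to mitochondria. Its probe set 1417045_at read 10.53, 10.72, 10.52 and 10.40 on the untreated WT arrays, 8.80, 8.78 and 8.47 at 2 h, 9.83, 9.44 and 9.56 at 6 h, and 10.12, 9.87 and 10.02 at 24 h. The 4 groups did not overlap, and the levels were lowest at 2 h, then at 6 h, then at 24 h, with 0 h highest. It fell by 1.86 ± 0.11 at 2 h (adjusted p = 3.42e-10), 0.93 ± 0.11 at 6 h (adjusted p = 3.25e-06) and 0.54 ± 0.11 at 24 h (adjusted p = 0.000654). It regained 0.93 from 2 to 6 h (adjusted p = 3.22e-05) and 0.39 from 6 to 24 h (adjusted p = 0.0263). The last step missed the threshold without array 18, 38, 4 or 39 (0.31 to 0.39, adjusted p between 0.0735 and 0.146) and in WT arrays alone (0.39, adjusted p = 0.0642).

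The other Bid probe set, 1448560_at, designed from the same record, followed that course. Untreated WT arrays read 8.61, 8.61, 8.30 and 8.17, those at 2 h 6.57, 6.45 and 6.00, those at 6 h 7.56, 7.22 and 7.18, and those at 24 h 7.86, 7.46 and 7.15. Every treated array lay under the untreated ones, and the 6 and 24 h arrays overlapped. The changes were -2.08 ± 0.16 (adjusted p = 6.26e-09), -1.10 ± 0.16 (adjusted p = 2.14e-05) and -0.93 ± 0.16 (adjusted p = 5.75e-05). From 6 to 24 h it changed by 0.17 (95% interval -0.18 to 0.51, adjusted p = 0.673). The falls at 2 h were of like size in both array sets, -1.82 and -1.84 for 1417045_at and -2.05 and -2.01 for 1448560_at.

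Bak1 encodes BAK, a pore former of the outer mitochondrial membrane. Its probe set 1418991_at read 8.97, 8.97, 8.95 and 8.88 on untreated WT arrays and 8.43, 8.32 and 8.59 at 2 h, with no overlap. It then read 9.16, 8.93 and 8.98 at 6 h and 8.74, 8.86 and 9.11 at 24 h, both overlapping the untreated arrays. The fall at 2 h was 0.50 ± 0.10 (adjusted p = 0.00121), and from 2 to 6 h the level rose by 0.58 (adjusted p = 0.000896). The changes from 0 h at 6 and 24 h were 0.08 (95% interval -0.13 to 0.29) and -0.04 (-0.25 to 0.17). The second Bak1 probe set, 1425716_s_at, from another record, lay between 2.06 and 2.36 on all arrays and passed in no comparison; the ending s marks probes that can match transcripts of more than 1 gene.

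Bad encodes a BH3-only protein that binds BCL2 and BCL-XL and is held inactive by phosphorylation. It changed late and little. For 1416583_at the untreated WT arrays read 7.47, 7.04, 6.90 and 7.20 and the 24 h arrays 7.59, 7.70 and 7.48, just above them. For 1416582_a_at they read 8.35, 7.93, 7.96 and 8.07 against 8.28, 8.79 and 8.54, overlapping through array 4 at 24 h and array 1 at 0 h. The rises at 24 h were 0.44 ± 0.11 (adjusted p = 0.00329) and 0.46 ± 0.10 (adjusted p = 0.00138). For 1416582_a_at the rise was 0.14 in the lower-numbered array set and 0.65 in the higher-numbered one. At 2 and 6 h the changes of both lay between -0.09 and 0.16 and none passed.

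**Figure D2:**
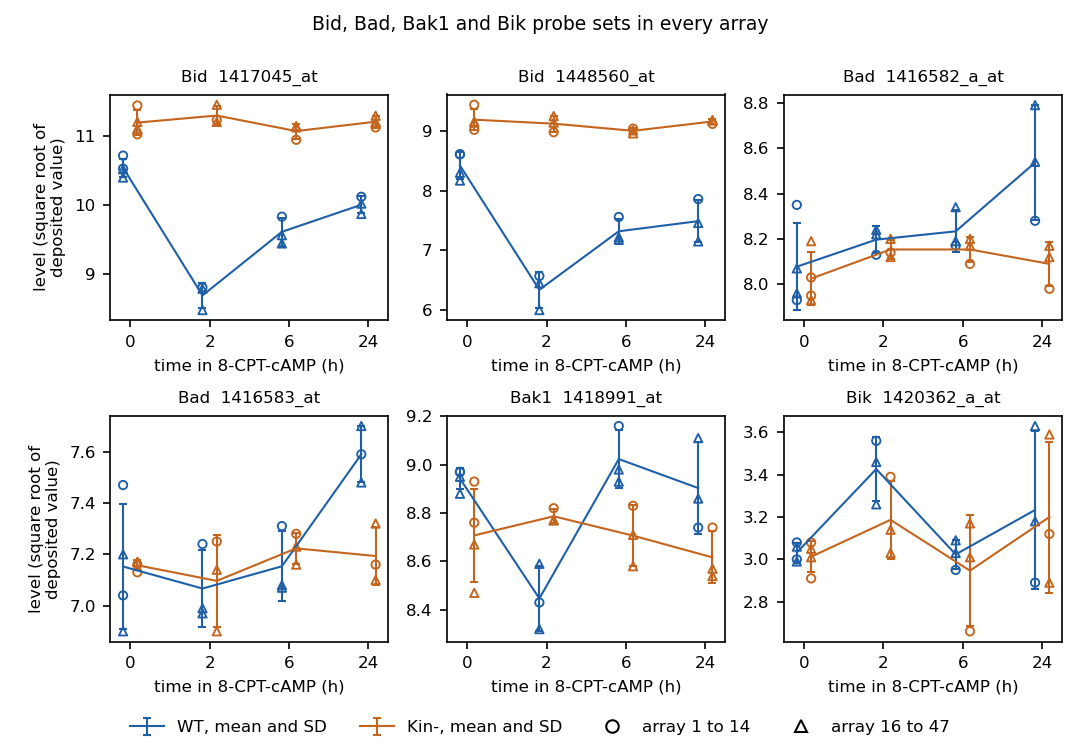
Level (square root of the deposited score) of 2 Bid, 2 Bad, 1 Bak1 and 1 Bik probe set on every array, against time in 8-CPT-cAMP in h at equal spacing; circles are arrays 1 to 14, triangles arrays 16 to 47, and lines join group means with bars of 1 SD (n = 4 at 0 h, n = 3 at other times). Both Bid panels drop at 2 h in WT (8.47 to 8.80 and 6.00 to 6.57) and Kin- lies above WT at all times. The Bik panel shows 1420362_a_at, chosen because its change at 2 h in WT was the largest of the Bik probe sets. The vertical scales differ between panels.

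The BH3-only genes Bik and Pmaip1 read low throughout. No change of theirs passed in the main fit to all 26 arrays, which had no array weights and no term for the array set. The 3 Bik probe sets lay between 2.66 and 3.88 and the Pmaip1 probe set between 2.80 and 3.49 on the 26 arrays, against array medians above 5. The largest of their changes was that of Bik 1420362_a_at at 2 h, 0.40 ± 0.16 (adjusted p = 0.107): its arrays read 3.56, 3.26 and 3.46 against 3.00, 3.08, 2.99 and 3.06 and did not overlap. Bik 1420363_at had a change of 0.20 at 2 h (adjusted p = 0.164), which passed without array 2 (0.31, adjusted p = 0.0235), in arrays 16 to 47 alone (0.31, adjusted p = 0.0434) and with array weights (0.31, adjusted p = 0.00252). For Pmaip1, which encodes NOXA, the change at 2 h was 0.20 (95% interval -0.07 to 0.46), which passed with array weights (0.28, adjusted p = 0.0279). Its step from 2 to 6 h, -0.29 (adjusted p = 0.165), passed with array weights (-0.36, adjusted p = 0.0109), with the term for the array set (-0.29, adjusted p = 0.0418) and in arrays 16 to 47 alone (-0.37, adjusted p = 0.0329). At such low readings a small change of a weakly expressed gene may not be seen.

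Counted over the members, 5 of 15 probe sets rose and 3 fell at 2 h in WT, with the other 7 not passing. Of all 22626 probe sets 14.4% passed there, 7.11% upward and 7.25% downward. At 6 h 5 rose and 2 fell, where 19.6% of all passed, 9.52% upward and 10.1% downward. At 24 h 6 rose and 2 fell, where 30% of all passed, 14.4% upward and 15.6% downward. The rises at 2 and 6 h were all of Bcl2l11, and those at 24 h were 4 of Bcl2l11 and 2 of Bad. The median change of the 15 was 0.20, 0.00 and 0.20 at the 3 times, beside 0.05, -0.03 and -0.01 over all probe sets. Of the steps between times, 3 members rose and 4 fell from 2 to 6 h, beside 6.37% and 6.66% of all (13% together). From 6 to 24 h 5 rose and 1 fell, beside 8.64% and 9.16% (17.8%), and from 2 to 24 h 6 rose and 3 fell, beside 13.5% and 15.6% (29.1%).

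**Figure D3:**
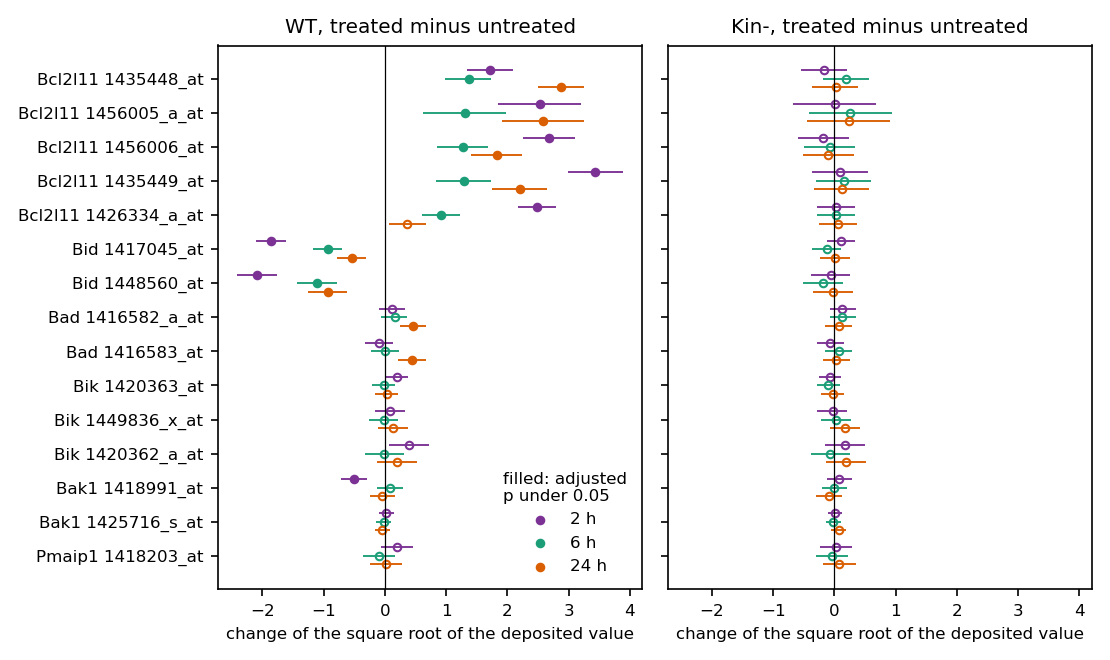
Change from 0 h (difference of the square root of the deposited score, with 95% interval) of the 15 member probe sets in WT (left) and Kin- (right) at 2, 6 and 24 h; filled points have an adjusted p under 0.05. In WT the Bcl2l11 points lie to the right, up to 3.44, and the Bid points to the left, down to -2.08, while no Kin- point is filled and the largest Kin- change is 0.26.

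In Kin- cells no member change passed at 2, 6 or 24 h, which does not show that none occurred. By limma 0 of 15 passed at each time, also 0 at an unadjusted p under 0.05. The largest changes were 0.18, 0.26 and 0.23 in size. Intervals were widest for Bcl2l11 1456005_a_at, at 6 h -0.41 to 0.94 (95%). Over all 22626 probe sets 0 passed too, or 0%. At an unadjusted p under 0.05 there were 489, 429 and 491 of all, or 2.16%, 1.9% and 2.17%. Bcl2l11 1435448_at read 8.97, 8.60, 9.09 and 9.03 on the untreated Kin- arrays, 8.91, 8.62 and 8.73 at 2 h, 9.16, 9.13 and 9.06 at 6 h, and 8.92, 8.98 and 8.92 at 24 h. All 13 arrays lay under the highest untreated WT array, 9.23. Its change at 24 h in Kin- was 0.02 (95% interval -0.36 to 0.39). The 13 Kin- arrays ran from 6.75 to 7.74 on 1456005_a_at, from 6.80 to 7.73 on 1456006_at, from 5.24 to 5.84 on 1435449_at and from 5.22 to 5.80 on 1426334_a_at. On all 5 Bcl2l11 probe sets each treated Kin- group overlapped the untreated one. Bid 1417045_at read 11.03, 11.45, 11.21 and 11.11 untreated and between 10.95 and 11.46 on the 9 treated arrays, with a change at 2 h of 0.10 (95% interval -0.13 to 0.34). The 13 arrays ran from 8.96 to 9.44 on Bid 1448560_at, from 8.47 to 8.93 on Bak1 1418991_at, and from 7.93 to 8.20 and 6.90 to 7.32 on the Bad probe sets 1416582_a_at and 1416583_at.

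The difference between the responses of the lines was tested as the WT change minus the Kin- change. At 2 h 5 members passed upward and 3 downward, beside 3.51% and 3.41% of all probe sets (6.92% together). At 6 h 4 passed upward and 2 downward, beside 5.07% and 5.73% (10.8%), and at 24 h 4 and 2, beside 10.2% and 11.3% (21.5%). For Bcl2l11 1435448_at the difference was 1.88 ± 0.25 at 2 h (adjusted p = 4.8e-05), 1.17 ± 0.25 at 6 h (adjusted p = 0.0037) and 2.86 ± 0.25 at 24 h (adjusted p = 7.14e-08). For Bid 1417045_at it was -1.97 ± 0.16 at 2 h (adjusted p = 1e-07), and at 24 h -0.55 (adjusted p = 0.0151; -0.48, adjusted p = 0.0534 without array 19). Bak1 1418991_at differed at 2 h, by -0.58 ± 0.14 (adjusted p = 0.0128).

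A few response differences were near the threshold. At 6 h that of 1456005_a_at was 1.04 (adjusted p = 0.194), but it passed with a term for the array set (1.04, adjusted p = 0.0067) and with the array series as a replicate block (1.01, adjusted p = 0.0207). That of 1435449_at, 1.14 (adjusted p = 0.0165), did not pass without array 18 (0.95, adjusted p = 0.0676) or array 38 (1.05, adjusted p = 0.053). At 24 h that of 1426334_a_at was 0.31 (95% interval -0.13 to 0.74). For Bik 1420363_at the difference at 2 h was 0.28 (adjusted p = 0.254), and it passed with array weights (0.46, adjusted p = 0.00548). The late rise of Bad was not shown to be limited to WT: its differences at 24 h were 0.39 (adjusted p = 0.0655) and 0.40 (adjusted p = 0.0728), and with a term for the array set both passed (0.39, adjusted p = 0.0426, and 0.40, adjusted p = 0.0386).

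Before treatment the lines differed in Bid. Untreated Kin- arrays read 11.03 to 11.45 on 1417045_at against 10.40 to 10.72 in WT, and 9.02 to 9.44 against 8.17 to 8.61 on 1448560_at, with no overlap on either. Kin- was higher by 0.66 ± 0.10 (adjusted p = 0.000787) and 0.77 ± 0.14 (adjusted p = 0.00346). The other 13 member probe sets did not pass, and of all probe sets 3.01% did, 1.58% higher and 1.42% lower in Kin-. Bcl2l11 differed by between -0.11 and 0.11 over its 5 probe sets, with 95% intervals that reached from -0.70 to 0.55 for the widest, 1456005_a_at. Bak1 1418991_at was lower in Kin- by 0.24 (adjusted p = 0.246), which passed with array weights (-0.32, adjusted p = 0.02). Cd2, a T-cell surface marker, also differed, at 8.80 to 9.34 in untreated Kin- and 6.85 to 7.21 in untreated WT arrays; its part in the Bid difference was not tested.

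The rest of the family and its pathway were counted gene by gene, with the probe set of highest mean for each gene against all 12393 genes. Of these 15.7% passed at 2 h in WT (7.25% higher, 8.44% lower), 22.2% at 6 h (11% and 11.1%) and 32.5% at 24 h (16.3% and 16.3%). Of 10 other BH3-only and BCL2-fold genes 8 were measured. At 2 h 1 rose (Bcl2l13, 0.77 ± 0.15, adjusted p = 0.000976), at 6 h 2 fell (Bcl2l15, -1.14 ± 0.26, adjusted p = 0.00316, and Bbc3, which encodes PUMA, -0.56 ± 0.17, adjusted p = 0.0212), and at 24 h 2 rose. These 2 were Bcl2l13 (0.48, adjusted p = 0.0182) and Bcl2l14 (1.53 ± 0.19, adjusted p = 1.25e-06), the latter from 5.97 to 6.53 at 0 h up to 7.37 to 8.11, with a change of 0.29 on its other probe set, 1429347_at. Of 8 anti-apoptotic genes 5 were measured, and Mcl1 alone passed, with a rise of 0.69 ± 0.17 at 2 h (adjusted p = 0.00593); Bcl2 and Bcl2l1 had changes between 0.07 and 0.20. The median changes of the first list were -0.01, -0.02 and -0.13 and of the second 0.11, 0.14 and 0.15, beside 0.05, -0.03 and -0.01 over all genes. Bcl2l13, Bbc3 and Mcl1 are named because they make up counts of 5 or fewer, and were chosen with their values seen.

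Of 18 genes of mitochondrial release and the apoptosome 16 were measured, of which 1 rose and 2 fell at 2 h, 3 rose and 4 fell at 6 h, and 3 rose and 5 fell at 24 h, with median changes of 0.02, -0.10 and -0.07. Casp8, which encodes the caspase that cuts BID, rose by 0.87, 1.04 and 0.77 at the 3 times (each SE 0.15, adjusted p = 0.000248, 2.44e-05 and 0.000276), from 10.30 to 10.44 untreated up to 11.00 to 11.51 on the treated arrays. At 24 h Xiap, a caspase inhibitor, rose by 0.73 (adjusted p = 0.000256) and Casp9, the caspase of the apoptosome, by 0.60 (adjusted p = 0.00103). Casp9 was first lower at 2 h, with a change of -0.49 (adjusted p = 0.0128), and stood at 0.04 at 6 h. Apaf1, also of this list, rose by 0.82 at 6 h (adjusted p = 0.0223) and stood at 0.26 at 24 h (adjusted p = 0.602). Among the 4 that fell at 6 h were Htra2, Vdac1 and Vdac2 (between -0.60 and -0.31). The 5 that fell at 24 h were Cycs (-0.86, adjusted p = 8.51e-06), which encodes cytochrome c, Htra2, Vdac1, Aifm1 and Vdac2 (between -0.65 and -0.39). Genes with changes under 1 unit were named here after their values were seen.

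Of 18 factors known to act on BIM or its relatives 15 were measured, and 4 rose and 1 fell at 2 h, 3 rose and 1 fell at 6 h, and 4 rose and 3 fell at 24 h, with median changes of 0.18, 0.29 and 0.08. Foxo1, a forkhead factor known to drive Bim transcription, rose by 2.43, 2.07 and 2.45 (each SE 0.22, adjusted p = 8.25e-08, 5.78e-07 and 1.78e-08), from 8.23 to 8.82 untreated up to 10.32 to 11.19 on treated arrays. Of its 4 probe sets 3 rose at all times; 1456529_at had changes of 0.03, -0.02 and -0.01. Its relative Foxo3 had changes of -0.05 and 0.38 at 2 and 6 h and rose by 1.26 ± 0.20 at 24 h (adjusted p = 3.27e-05) on 1434831_a_at, as did 1434832_at (1.46), while 1450236_at stood at 0.02.

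Tsc22d3, which encodes the glucocorticoid-induced leucine zipper GILZ, rose by 2.27, 1.53 and 0.77 (adjusted p = 8.13e-07, 7.17e-05 and 0.0178). Its probe set 1420772_a_at rose by 1.58, 1.29 and 1.08 (adjusted p = 0.00134, 0.0052 and 0.0115), while 1425557_x_at had changes between 0.29 and 0.40 that did not pass. Nr4a1, whose nuclear receptor NUR77 is known to bind BCL2 at mitochondria, rose by 4.14 ± 0.36 at 2 h (adjusted p = 5.34e-08) and 2.16 at 6 h (adjusted p = 0.000139), and stood at 0.74 at 24 h (adjusted p = 0.148). Ddit3, which encodes CHOP, an activator of Bim in stressed cells, passed narrowly at 2 h (1.12 ± 0.37, adjusted p = 0.0496) with arrays that overlapped (8.97 to 10.19 against 7.81 to 9.04). E2f1, which encodes a cell cycle transcription factor, fell by 1.07 at 6 h (adjusted p = 9.04e-06) and 1.45 at 24 h (adjusted p = 5.8e-08). Dynll1 and Dynll2, the dynein light chains known to bind BIM and BMF, fell by 0.42 (adjusted p = 0.000422) and 0.71 (adjusted p = 7.41e-05) at 24 h, and Dynll1 by 0.35 at 2 h; both were chosen after their values were seen. In Kin- 0 genes of all 4 lists passed at any time. The part of the listed factors in the changes of Bcl2l11 was not tested.

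**Figure D4:**
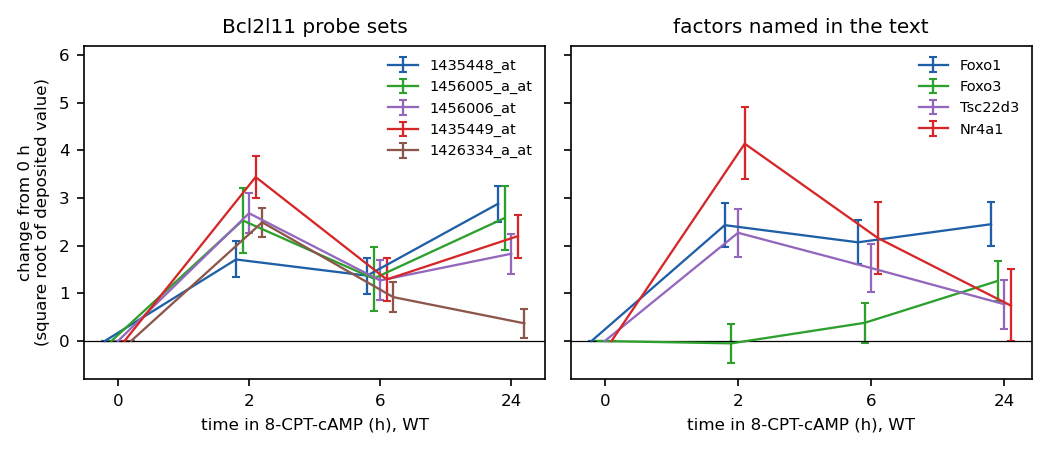
Change from 0 h (difference of the square root of the deposited score, with 95% interval) in WT at 2, 6 and 24 h, at equal spacing, for the 5 Bcl2l11 probe sets (left) and 4 of the listed factors (right). At 2 and 24 h 1435448_at stands at 1.71 and 2.88, 1456005_a_at at 2.53 and 2.58, and 1456006_at at 2.68 and 1.83. Likewise 1435449_at stands at 3.44 and 2.20 and 1426334_a_at at 2.49 and 0.37. Foxo1 stands at 2.43 and 2.45, Foxo3 at -0.05 and 1.26, Tsc22d3 at 2.27 and 0.77, and Nr4a1 at 4.14 and 0.74. The part of these factors in the Bcl2l11 changes was not tested.

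The genes whose 6 changes against 0 h (3 in WT, 3 in Kin-) lay closest to each changed member were found by the root mean square difference, among 12392 other genes. Nearest to Bcl2l11 1435448_at were Pdcd4, the gene of a translation inhibitor (difference 0.24, WT changes 1.63, 1.83 and 2.60), A630072M18Rik, Cerk, the T-cell costimulator gene Cd28 and St6gal1, all within 0.29. Ptk2b, a focal adhesion kinase gene, was nearest to both 1456005_a_at (0.14) and 1435449_at (0.35). For 1456006_at the nearest was Zfand2a (0.22), followed by Junb (0.25). Close to 1426334_a_at came 2810459M11Rik (0.22), the clock gene Per1 (0.23; 1.98, 0.89 and 0.54), Arnt (0.24), Tinf2 and Tsc22d3 (0.31). The 2 Bid probe sets had Tmem209 (0.12) and Notch1 (0.13; -2.15, -1.10 and -0.62) as their nearest genes. Only changes of like size are named by this measure, and the changes share their 0 h arrays.

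Of the marker lists, the myeloid sum at 24 h in WT lay clear of that at 0 h, through 1 gene. Itgam read 5.44 to 7.42, against 4.27 to 4.74 in all other groups, and the summed level of the 5 myeloid markers was 19.4 to 21.7 against 18.5 to 19.1 at 0 h, while the monocyte marker Cd14 stayed at 1.64 to 1.78 on all arrays. At 24 h Lyz2 (3.45 to 3.59), Csf1r (5.62 to 5.71) and Mpo (3.18 to 3.28) were near or under their 0 h levels (3.45 to 3.50, 5.69 to 6.05 and 3.25 to 3.41). The summed level of the 4 B-cell markers was 16.1 to 16.4 at 24 h and 16.2 to 16.4 at 0 h, and that of the 4 fibroblast markers 12.3 to 13.8 and 13.0 to 13.1. The summed level of the 9 T-cell markers was 80.3 to 82.2 at 0 h, 77.0 to 79.7 at 2 h, 78.4 to 79.3 at 6 h and 79.6 to 84.2 at 24 h in WT, and 81.8 to 84.0 in Kin-. The single T-cell markers went different ways. Cd2 read 6.85 to 7.21 at 0 h and 5.12 to 5.63 at 2 h, and Thy1 12.77 to 13.03 and 11.66 to 12.08, whereas Cd3d read 12.48 to 12.54 at 0 h and 13.24 to 13.38 at 24 h. The part of these shifts in the changes of Bcl2l11, Bid and Bad was not tested.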

How the data were processed

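RNA of WT and Kin- S49 cells was measured on 26 arrays. The authors deposited 1 table of processed scores; neither the method behind them nor their scale is given in the labels or the table. The square root of the score was taken as a log2 intensity, which is an assumption, and no further normalization was applied. Gene symbols came from the platform annotation (20380 with 1 symbol, 691 with several, 1555 with none); 20351 of the 20380 matched the gene table. No filter was applied.

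Group means of all 8 groups were fitted with limma 3.58.1 (R 4.3.3, lmFit and eBayes). The p-values were adjusted by Benjamini-Hochberg over all 22626 probe sets and called under 0.05. The fit was tested on simulated data with independent arrays. These data held no shift between array sets or series, so the test does not cover such shifts. The median SE of a treated against untreated difference was 0.119, and the number of arrays limits this precision. No pair of arrays in a group was identical (root mean square difference 0.17 to 0.454).

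All members were described, with up to 5 nearest genes of each member gene changed by at least 1 unit, and list genes were named where they passed with a change of at least 1 unit. The members, lists and tests were chosen with earlier results of these data known. The alternatives were the array set (as a term, or each set alone), the array series as a block, the power 0.75, untransformed and log2 scores, quantile normalization, array weights, a variance trend, the arrays of 1 line, a level of at least 5, and leaving out each array; the comparison of 24 with 2 h was added after the values were seen. Promoter windows came from RefSeq (GRCm38.p6) and were searched on both strands. They were found to be written in the direction of the gene, since a TATA box motif was in place in 1.95% of + strand windows as written and in 0.48% reversed.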

Additional observations from a re-analysis of the deposited data

Results flagged for a closer look

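The WT and Kin- responses to the analog differed, by the test of the difference itself, on 8 member probe sets, in 20 of 45 comparisons. At 2 h the difference was 1.88, 2.53, 2.86, 3.35 and 2.45 for Bcl2l11 probe sets 1435448_at, 1456005_a_at, 1456006_at, 1435449_at and 1426334_a_at. At the same time it was -1.97 and -2.02 for Bid 1417045_at and 1448560_at, and -0.58 for Bak1 1418991_at. At 6 h it was 1.17, 1.35, 1.14 and 0.89 for Bcl2l11 1435448_at, 1456006_at, 1435449_at and 1426334_a_at, and -0.81 and -0.91 for the Bid probe sets in that order. At 24 h it was 2.86, 2.35, 1.92 and 2.08 for Bcl2l11 1435448_at, 1456005_a_at, 1456006_at and 1435449_at, and -0.55 and -0.91 for Bid. Of all probe sets 6.92%, 10.8% and 21.5% passed in these comparisons at 2, 6 and 24 h. These comparisons share the untreated arrays of each line, and the probe sets read only Bcl2l11, Bid and Bak1. Probe sets of the same gene are not independent readings, so the count is not one of separate genes.

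In 1 of 30 untreated groups of 4 arrays a single array stood apart: for Bcl2l11 1426334_a_at in untreated WT cells, array 1 read 5.78 and the other arrays 5.49 to 5.50. Chance alone would mark about 1 group in 20.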

How the results depend on the processing

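Of 67 member changes that passed, no alternative turned the sign of any. Leaving out 1 array kept 1723 of 1742 calls, and the other alternatives except the arrays 1 to 14 kept 706 of 713. In the arrays 1 to 14 alone, where each treated group is 1 array, 59 of the 67 missed the threshold. There Bcl2l11 1435448_at changed by 1.65 at 2 h (adjusted p = 0.109) and 1.15 at 6 h (adjusted p = 0.138), and its response difference at 24 h was 2.11 (adjusted p = 0.0829). The members that passed there numbered 2, 0 and 4 at 2, 6 and 24 h in WT, 0 between the untreated lines, and 0, 0 and 0 in the response differences.

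Without each array in turn, the change of 1435448_at ran from 1.64 to 1.78 at 2 h, 1.24 to 1.48 at 6 h and 2.64 to 3.2 at 24 h, and its response difference at 24 h from 2.63 to 3.18. Members that passed numbered 8 to 9, 7 to 7 and 8 to 9 in WT, 0 to 0 in Kin-, 2 to 2 between the untreated lines, and 8 to 8, 5 to 6 and 5 to 8 in the response differences.

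Over all probe sets, some counts of those passing moved by over 1.5 times. In the arrays 1 to 14 the counts in WT fell from 3249 to 235 at 2 h, from 4441 to 719 at 6 h and from 6780 to 3183 at 24 h. There they also fell from 2948 to 0 between 2 and 6 h, from 4028 to 0 between 6 and 24 h, from 6586 to 1993 between 2 and 24 h, and from 680 to 0 between the untreated lines. The response differences, 1566, 2444 and 4859 at the 3 times, became 1, 1 and 722. Array weights gave 6513 at 2 h, 7573 between 2 and 6 h, 7322 between 6 and 24 h, 1685 between the untreated lines, and 3323 and 4500 response differences at 2 and 6 h. The term for the array set gave 5180 between 2 and 6 h, 1354 between the untreated lines, and 2616 and 3715 response differences at 2 and 6 h. The arrays 16 to 47 gave 5363, 1249 and, for the response differences at 2 h, 2428. Between 2 and 6 h WT arrays alone gave 1933, and leaving out array 38 gave 1895. Without array 40, 450 passed between the untreated lines. In Kin- at 2 h, 1 to 3 probe sets passed in 8 of the alternatives, none of them a member, and at 24 h 1 to 4 in 3 of them. The cause of these moves was not tested.

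The labels give the groups no shared replicate numbers, but arrays of one series deviated together (correlations 0.23 to 0.70). The main fit did not pair the arrays of a series. Each series lay within 1 array set, so these correlations include any shift between the sets and do not by themselves show an effect of the series. With the series as a replicate block 1 member call changed, the 6 h response difference of Bcl2l11 1456005_a_at (1.01, adjusted p = 0.0207). The block gave 5433 probe sets between 2 and 6 h and 2616 and 3828 response differences at 2 and 6 h, and it gives no value between the untreated lines.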
